A study of Mus musculus with 13 samples.

Results

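Whole livers depleted of hepatic stellate cells were set against livers that kept them. The members are libraries, taken by the treatment given in the labels: 4 depleted and 6 control livers, 10 of the 13 libraries of the series. The other 3 libraries, livers 72 h after partial hepatectomy, were not compared. They entered the same fit, and so its low-count filter, scaling, sex term and estimate of the spread. All animals were mice and each library is 1 liver. Control replicates 1, 2 and 6 and depleted replicate 3 were male, and control replicates 3, 4 and 5 and depleted replicates 1, 2 and 4 were female. The agent or transgene used for the depletion, the promoter driving it, the strain, the age and the interval between depletion and sampling are not given in the sources used here. Whether the controls received that agent is not given either. The label is of stellate cell loss alone, so an effect of the depleting agent and an effect of the missing cells cannot be told apart.

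Stellate cells are the pericytes of the liver sinusoid. They hold most of the body's retinyl esters, they make much of the fibrillar collagen and many secreted factors of the normal liver, and they lie against hepatocytes, sinusoidal endothelium and Kupffer cells, the resident macrophages. Hepatocytes divide their work along the sinusoid: those near the central vein, under Wnt and R-spondin signals from neighbouring cells, express glutamine synthetase and drug-metabolising cytochromes P450, while those near the portal tract run gluconeogenesis and the urea cycle. In inflammation hepatocytes turn to secreting acute phase proteins, largely under interleukin-6 and STAT3, and interferon-gamma induces antigen presentation genes and defence GTPases.

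Library totals lay between 35360991 and 51008737 counts. Alb, a hepatocyte gene, took 3.74 to 14.22% of the counts of each library. Depleted replicate 4 stood apart in the genes that mark the depleted cells, control replicate 6 was low in genes of endothelial, dendritic and stellate cells (a stellate sum of 596 CPM, against 1052 to 1513 CPM in the other controls) though not of neutrophils, and control replicate 4 was high in mitosis genes. Depleted replicate 4, labelled female, held 73 counts of 4 Y-linked genes, against 0 to 1 in the other 2 female depleted libraries and 5660 to 7741 in the male control and depleted ones. Whether this library holds RNA of another liver was not tested, and the levels of stellate and other genes in it are given as found. Several results that rest on these libraries are given with and without them. Levels are CPM, counts scaled to library size with TMM factors, and changes are log2 fold changes of depleted against control livers from edgeR's quasi-likelihood test with Benjamini-Hochberg adjustment, called at an adjusted p under 0.05. Control levels are given as the lowest, the highest and the median of 6 livers, and depleted levels in the order of replicates 1 to 4. No batch or date is given in the labels, and p-values measure the spread between these samples.

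Of 13831 genes tested, 33.9% were called, 2614 of them higher (18.9%) and 2078 lower (15%). The 2 directions fell on different parts of the expression range. Among genes below 1 CPM in controls, 39.1% rose and 6.43% fell, whereas among the 119 genes at 1000 CPM or more, 8.4% rose and 44.5% fell. At 100 to 1000 CPM, 7.52% rose and 38.7% fell, and at 10 to 100 CPM, 9.83% rose and 16.6% fell, so the counts of lists with many abundant genes are read against these shares too. A gene low in controls passes the low-count filter more readily when it is high after depletion, so the first of these shares is in part set by the filter. Genes called higher together took 6.98 to 8.62% of a control library's counts and 21.7, 19.1, 25.6 and 22.9% of the counts in depleted replicates 1 to 4. Genes called lower took 33.5 to 39.1% in controls and 19.4, 19.6, 16.9 and 22.1% in the depleted livers. Both sets were chosen by their calls in these same libraries, so the direction of these shifts was fixed and only their size is described. Scaling to library size alone gave 2884 genes higher and 1471 lower and moved the median change over all genes (log2) from -0.03 to 0.08. Without depleted replicate 3, the only male among the depleted livers, 1786 genes were called higher and 1174 lower, and a fit on females only called 1834 higher and 861 lower.

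**Figure D1:**
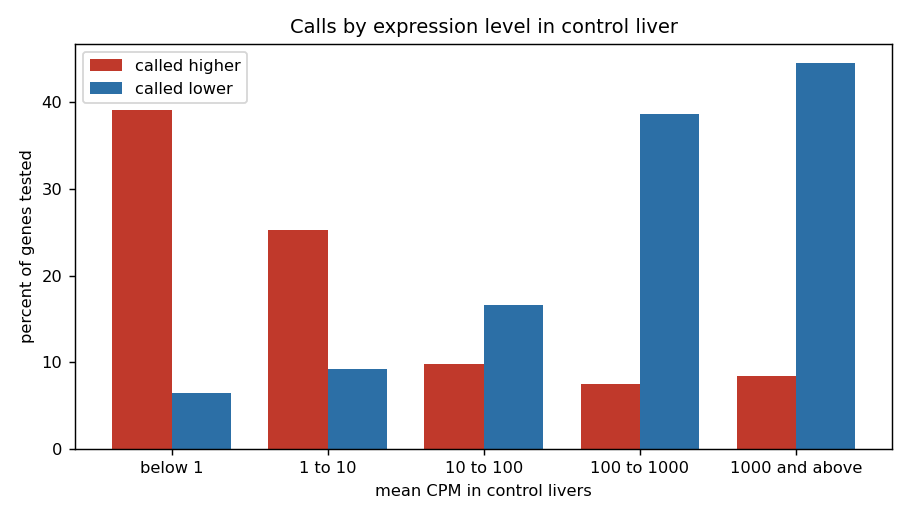
Percent of the genes tested that were called higher (red) and lower (blue) in depleted livers, by mean CPM in control livers. The share called higher is 39.1% below 1 CPM and 8.4% at 1000 CPM and above, and the share called lower is 6.43% and 44.5%.

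In all, 57 gene lists covering cell types, liver zones, metabolism, plasma proteins, immunity, growth and matrix held 1683 different genes, of which 1640 passed the low-count filter and 834 were called. Lists of lymphocyte, neutrophil, dendritic cell and interferon genes had at least 82.9% of their tested members called higher, against 65.2% for Kupffer cells and 68% for monocytes, and lists of stellate, pericentral and fatty acid oxidation genes were called lower for the most part. Lists of ribosomal proteins, ribosome assembly, the unfolded protein response and sinusoidal endothelium had few calls in either direction. The summed CPM of a list lay above every control in all 4 depleted livers for 20 lists and below every control for 12. Genes can sit in more than 1 list, so the lists are not independent of each other.

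**Figure D2:**
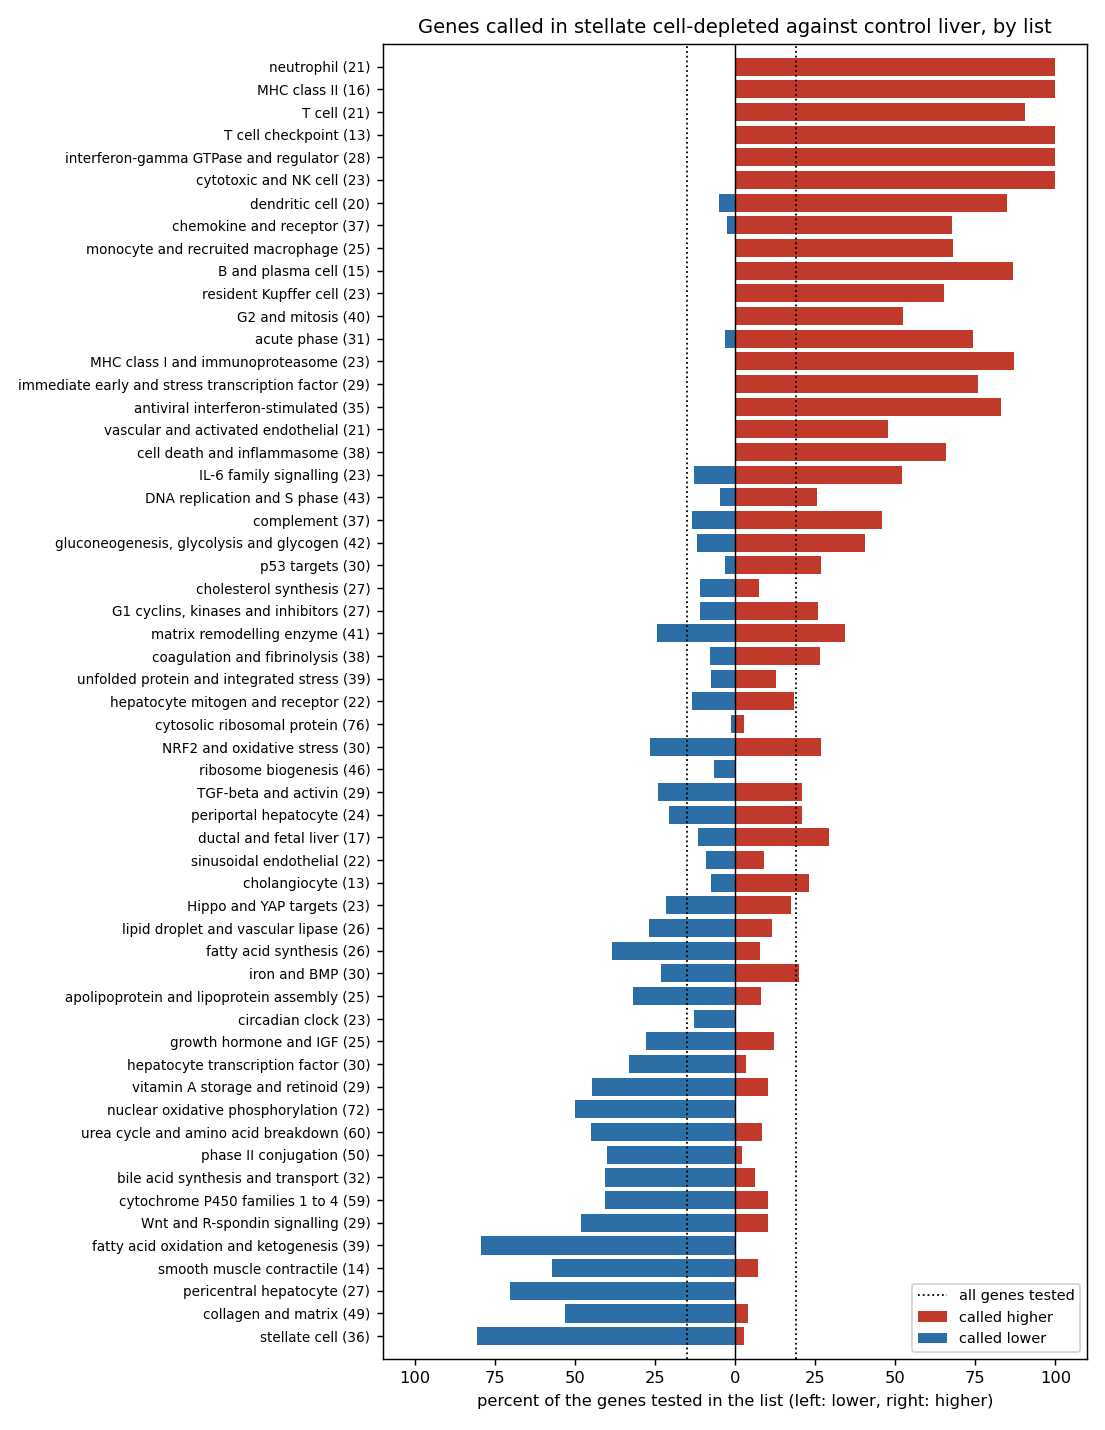
Percent of the genes tested in each of 57 lists (number tested in brackets) that were called higher (right, red) or lower (left, blue) in depleted livers. Dotted lines mark the shares over all 13831 genes tested, 18.9% higher and 15% lower, and lists are ordered by their median log2 fold change.

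The depleted cells' own genes were almost gone from 3 of the 4 livers and reduced in the fourth. Of 36 stellate genes tested, 29 were called lower, against 15% of all genes, with a median log2 fold change of -4.19. The median member stood at 0.745, 0.891 and 0.256% of its control mean in depleted replicates 1 to 3 and at 15.6% in replicate 4. Between 9 and 10 of the 36 had no count in those 3 livers, and 1 had none in replicate 4. Without replicate 4 the list's median was -7.16. In bulk tissue, fewer stellate cells and less RNA per stellate cell cannot be told apart, here or for any other cell type below.

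Lrat, the enzyme that esterifies retinol for storage (chromosome 3, 82892579 to 82903973, GRCm38), was measured at 7.77 to 67.4 CPM (median 39.9) in controls and 0.193, 0.134, 0.14 and 2.54 CPM in depleted replicates 1 to 4. Every depleted liver was under every control, with replicate 4 apart from the other 3. Its log2 fold change was -5.93 ± 0.93 (SE, adjusted p = 0.000474), and -7.9 without replicate 4. Pdgfrb, the PDGF receptor of pericytes, was present at 6.42 to 16.5 CPM (median 9.89) in controls and 0.129, 0.0896, 0.21 and 3.61 CPM in depleted replicates 1 to 4, a change of -3.75 ± 0.91 (SE, adjusted p = 0.00729), and of -6.18 without replicate 4. Des, the intermediate filament desmin, had no counts in 3 depleted livers and 2 CPM in replicate 4, against 2.64 to 5.36 CPM in controls. Its change of -3.41 (adjusted p = 0.0441) was not called when any library but depleted replicate 4 was left out (adjusted p 0.0519 to 0.12), and without replicate 4 it was -10.49 (adjusted p = 2.73e-06).

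Steap4, a metalloreductase that is also inducible in hepatocytes, went against the list. It was measured at 64.1 to 141 CPM (median 110) in controls and 462, 251, 432 and 221 CPM in depleted livers, a log2 fold change of 1.70 ± 0.45 (SE, adjusted p = 0.0119) that was not called without depleted replicate 3 (adjusted p = 0.0673). Falls of the same size as those of stellate genes appeared outside the list, with ranges that did not overlap (11.9% of all genes tested lay wholly below the controls, 16.5% wholly above). They included Pth1r (-5.42), the parathyroid hormone receptor, Angptl2 (-5.23), Abi3bp (-4.99), Ddr2 (-4.89), a collagen receptor kinase, Cadm3 (-4.64), Ednrb (-4.41), the endothelin B receptor, and both subunits of soluble guanylate cyclase, Gucy1a1 (-4.29) and Gucy1b1 (-3.86).

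Several proteins that act on other cells or in plasma fell with the stellate genes. Colec10 and Colec11, collectins that start the lectin pathway of complement, changed by -8.13 ± 0.93 (SE, adjusted p = 5.57e-05) and -5.47 ± 1.17 (SE, adjusted p = 0.00331), or -11.77 and -10.32 without depleted replicate 4. The second of these stood at 18.7 to 47 CPM (median 38) in controls and 0.0643, 0, 0.0175 and 4.41 CPM in depleted livers. Bmp5, a bone morphogenetic protein, was at 7.38 to 17.9 CPM (median 15.7) in controls and 0, 0, 0 and 0.668 CPM in depleted livers. Gdf2, which encodes BMP9, a ligand of endothelial ALK1, was present at 11.1 to 32.8 CPM (median 28.7) in controls and 0.107, 0.336, 0.0175 and 3.39 CPM in depleted livers, with a change of -5.12 ± 0.92 (SE, adjusted p = 0.00114), or -7.54 without replicate 4. Igfbp3, a carrier of insulin-like growth factors, changed by -6.63 ± 1.00 (SE, adjusted p = 0.000351), or by -9.98 without replicate 4. Hgf, the hepatocyte growth factor, fell less far, with levels of 3.87 to 20.5 CPM (median 17.4) in controls and 5.1, 4.86, 4.28 and 2.32 CPM in depleted livers, so that the ranges overlapped through the low control replicate 6, and the change was -1.88 ± 0.41 (SE, adjusted p = 0.00349).

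Of 14 contractile genes of vascular smooth muscle tested, 8 were called lower and 1 higher, with 4 lower without control replicate 3 or depleted replicate 3, 5 without control replicate 4 or 5 or depleted replicate 2, and 3 in females only. Without depleted replicate 4, 10 were lower and the median went from -1.16 to -2.34. The gene called higher was not called without control replicate 2, 3, 4 or 5 or depleted replicate 1 or 3. Over all genes, 15% were lower and 18.9% higher. Acta2, smooth muscle actin, was not called. It was measured at 0.99 to 5.16 CPM (median 1.4) in controls and 0.214, 0.179, 0.384 and 5.68 CPM in depleted livers. The first 3 depleted livers lay below every control and replicate 4 above every control. Its log2 fold change was -0.42 ± 1.06 (SE, adjusted p = 0.797), or -2.83 without replicate 4 (adjusted p = 0.00903). Myh11, smooth muscle myosin, fell by 3.83 on the log2 scale (adjusted p = 0.00511), or by 5.83 without replicate 4.

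**Figure D3:**
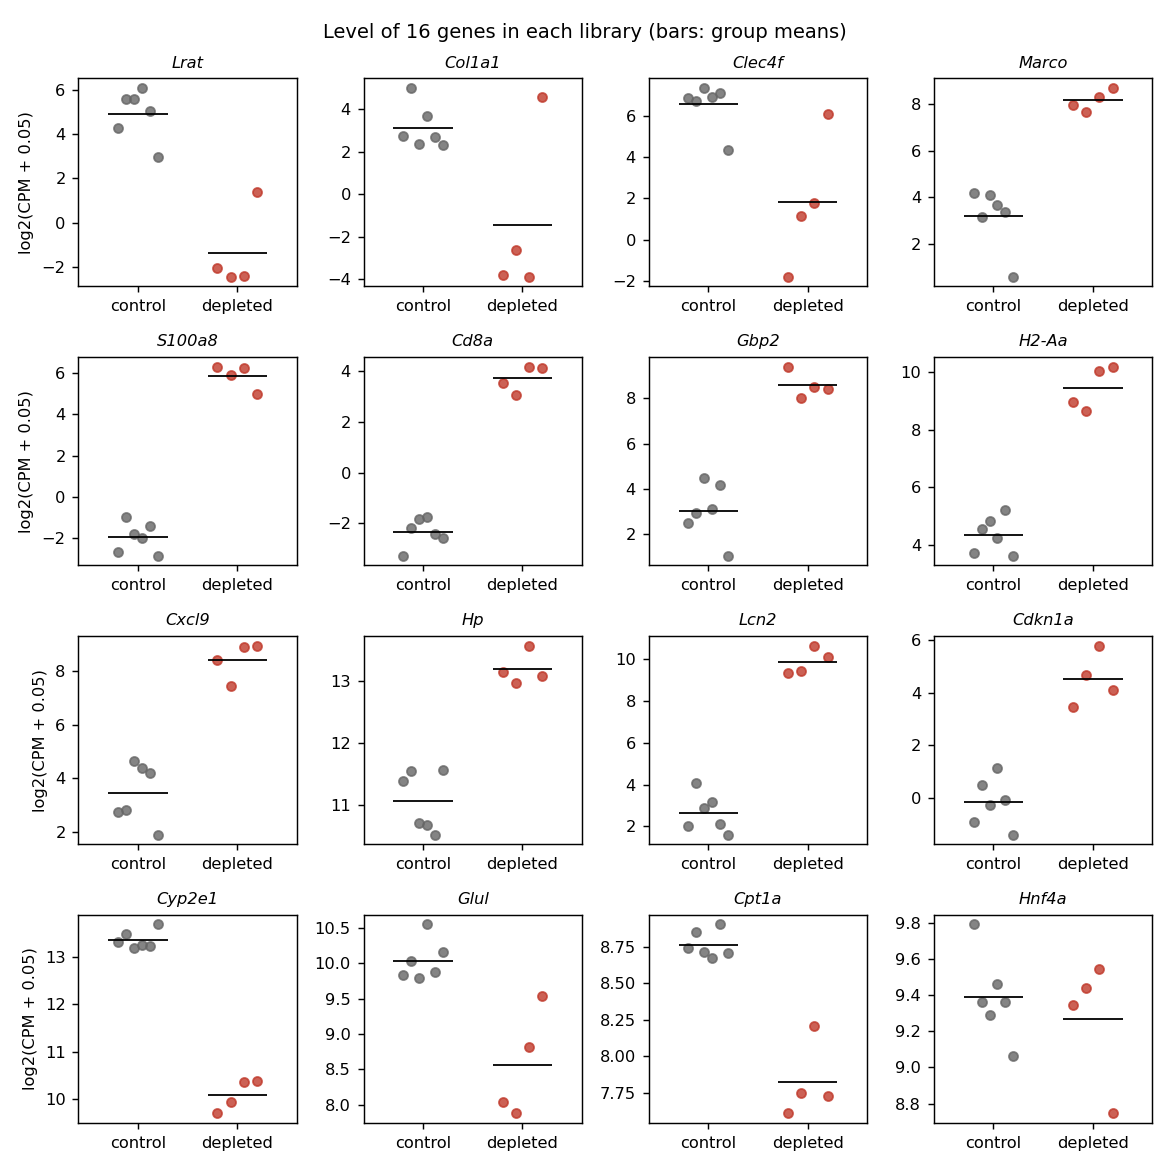
Level of 16 genes in each library on a log2(CPM + 0.05) scale, 1 point a liver, with bars at group means. Depleted replicate 4, the rightmost depleted point, holds 24.3 CPM of Col1a1 and 69.5 CPM of Clec4f, whereas the immune and acute phase genes are raised and Cyp2e1 lowered in all 4 depleted livers.

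Of 49 collagen and matrix genes, 26 were called lower and 2 higher, with a median of -1.39, against 15 and 18.9% of all genes lower and higher. Without depleted replicate 4, 33 were lower and the median was -2.47. None was called higher without control replicate 1, 3 or 5 or depleted replicate 1 or 3, and 1 without control replicate 4 or 6. Dcn, decorin, a small proteoglycan of the liver interstitium, was at 102 to 239 CPM (median 223) in controls and 1.61, 1.86, 0.507 and 23.2 CPM in depleted livers, a change of -5.33 ± 0.97 (SE, adjusted p = 0.00118), or -7.42 without replicate 4. Col14a1 and Postn, the fibril-associated collagen XIV and periostin, fell too, with changes of -4.87 ± 0.90 (SE, adjusted p = 0.00135) and -4.71 ± 0.87 (SE, adjusted p = 0.0013). Col1a1, the main fibrillar collagen, was not called, with 4.98 to 32.3 CPM (median 6.48) in controls and 0.0214, 0.112, 0.0175 and 24.3 CPM in depleted livers. Depleted replicate 4 lay inside the control range, and without it the change was -7.85 (adjusted p = 0.00131). Basement membrane collagen Col4a1 went the other way, at 18.5 to 55.6 CPM (median 41.6) in controls and 87.1, 62.2, 94.7 and 57.5 CPM in depleted livers, a change of 0.88 ± 0.28 (SE, adjusted p = 0.0302) that was lost without control replicate 1, 3 or 5 or depleted replicate 1 or 3 (adjusted p 0.0507 to 0.2).

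Enzymes that cut or cross-link matrix moved in both directions, 14 of 41 higher and 10 lower, against 18.9 and 15% of all genes. Without depleted replicate 3, 8 of 40 were higher and 8 lower. Those that fell included Adamtsl2 (-4.69) and Adamts2 (-2.83), which processes procollagen, and Mmp2, gelatinase A, whose call was lost without depleted replicate 3 (adjusted p = 0.0528). Those that rose included Mmp9, the gelatinase carried by neutrophils and macrophages, at 0.12 to 1.85 CPM (median 0.663) in controls and 25.4, 20.6, 19.9 and 6.28 CPM in depleted livers (4.54 ± 0.65 (SE, adjusted p = 0.000235)). Timp1, a metalloproteinase inhibitor linked to activated stellate cells, reached 2.32 CPM in depleted replicate 4 and at most 0.384 CPM in the other 3, and was not called with that liver (adjusted p = 0.201) or without it (adjusted p = 0.682).

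TGF-beta genes gave 6 higher and 7 lower of 29 (20.7 and 24.1%), against 18.9 and 15% of all genes, and 1 was lower without depleted replicate 3. Tgfb1, the ligand made by many leucocytes, was found at 3.03 to 10.7 CPM (median 9.51) in controls and 25.6, 19.2, 31.8 and 34.3 CPM in depleted livers, a change of 1.72 ± 0.35 (SE, adjusted p = 0.00221). Ltbp1, which anchors the latent ligand in the matrix, and Bambi, a decoy receptor, fell by 1.70 and 1.12 on the log2 scale, the first not called without depleted replicate 3 (adjusted p = 0.0849).

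Leucocyte genes rose by large folds. All 21 neutrophil genes tested (of 23 in the list) were called higher, with a median log2 fold change of 7.41, as were 19 of 21 T cell genes (median 4), 23 of 23 cytotoxic and natural killer genes (3.47), 13 of 13 checkpoint genes (3.9), 13 of 15 B and plasma cell genes (2.31) and 17 of 20 dendritic cell genes (3.15). The background share called higher was 18.9%. Of genes below 1 CPM in controls, such as Pdcd1 below, 39.1% were called higher, and such a gene can pass the filter through the depleted livers, so these shares describe the genes that passed. With a filter of 1 CPM in 4 libraries, 13 cytotoxic and 11 checkpoint genes remained to be tested.

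Neutrophil alarmin S100a8 was all but absent in controls and plain in depleted livers, at 0.09 to 0.47 CPM (median 0.219) in controls and 78.1, 59, 75.8 and 31.3 CPM in depleted livers (8.03 ± 0.42 (SE, adjusted p = 6.21e-07)). Csf3r, the G-CSF receptor, was at 0.39 to 2.92 CPM (median 1.62) in controls and 18.9, 12.6, 22.5 and 18.5 CPM in depleted livers. Chil3, a chitinase-like protein of monocytes and alternatively activated macrophages (chromosome 3, 106147554 to 106167564), ran 0.0234 to 0.297 CPM (median 0.138) in controls and 108, 141, 232 and 32.9 CPM in depleted livers, the largest rise among the genes named here, at 9.82 ± 0.54 (SE, adjusted p = 6.21e-07). For these genes no depleted liver overlapped a control.

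Both coreceptors of T cells rose. Cd8a, the coreceptor of cytotoxic T cells (chromosome 6, 71373427 to 71379173), stood at 0.0536 to 0.247 CPM (median 0.157) in controls and 11.4, 8.2, 18 and 17.2 CPM in depleted livers, a change of 6.36 ± 0.37 (SE, adjusted p = 6.21e-07). Cd4, which macrophages can also carry, stood at 1.12 to 2.34 CPM (median 1.74) in controls and 4.73, 5.55, 8.8 and 9.71 CPM in depleted livers, a change of 2.38 ± 0.32 (SE, adjusted p = 0.000134). Neither range overlapped its controls, and the difference between the changes was not tested. Gzmb, a killing protease, rose by 5.77 ± 0.53 (SE, adjusted p = 1.36e-05) and Ccl5, a T cell chemokine, by 5.27 ± 0.41 (SE, adjusted p = 4.84e-06). Ifng itself was near the detection limit in controls (at most 0.0702 CPM) and at 0.621, 0.336, 2.34 and 3.23 CPM in the depleted livers. Ncr1, a natural killer receptor, rose by 1.79 ± 0.47 (SE, adjusted p = 0.0103). Inhibitory receptor Pdcd1 (PD-1) was between 0 and 0.0472 CPM in controls and at 1.93, 1.88, 6.41 and 9.56 CPM after depletion, and its ligand Cd274 (PD-L1) at 1.14 to 4.84 CPM (median 3.51) in controls and 151, 70.1, 90.7 and 66.2 CPM in depleted livers.

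In several lymphoid and antigen-presentation genes depleted replicates 3 and 4 exceeded replicates 1 and 2. This order held for Cd3e, Ifng, Pdcd1, Clec9a, H2-Aa and Cd74. It did not hold for S100a8, Mmp9 or Jchain, the joining chain of secreted antibodies, where replicate 4 was lowest at 31.3, 6.28 and 11.9 CPM. Clec9a (4.13) and Xcr1 (4.14), a lectin and a chemokine receptor of cross-presenting dendritic cells, rose.

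Macrophage genes did not move as a block. Of 23 genes of resident Kupffer cells, 15 were called higher and none lower, against 18.9 and 15% of all genes. Yet Clec4f, the lectin most restricted to these cells, was far lower in 3 of 4 livers. Clec4f (chromosome 6, 83644542 to 83656187) was present at 20.3 to 165 CPM (median 119) in controls and 0.236, 2.17, 3.44 and 69.5 CPM in depleted livers. The first 3 depleted livers were below every control and replicate 4 was inside the control range. Over all 4 livers its log2 fold change of -3.0 ± 1.26 (SE, adjusted p = 0.0872) was not called, and without replicate 4 it was -5.78 (adjusted p = 0.00182). Vsig4 (-0.88) and Folr2 (-0.12), which also mark resident cells, were not called.

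Other genes of the list were much higher in the same livers. Scavenger receptor Marco ran 1.44 to 18.2 CPM (median 11.4) in controls and 248, 206, 317 and 417 CPM in depleted livers (4.73 ± 0.79 (SE, adjusted p = 0.000679)). Spic, a transcription factor of red pulp and Kupffer macrophages, was at 0.63 to 2.44 CPM (median 2.02) in controls and 24.2, 18, 19.9 and 32.3 CPM in depleted livers, and Csf1r, the receptor for the macrophage growth factor, at 19.7 to 233 CPM (median 74) in controls and 644, 550, 729 and 912 CPM in depleted livers. None of these ranges overlapped. Adgre1, which encodes F4/80, was also above every control, but its call (adjusted p = 0.0368) was lost when any library but control replicate 6 was left out (adjusted p 0.0516 to 0.158), and control replicate 6 held 1.74 CPM where the other controls had at least 22.4.

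Recruited monocyte genes joined the rise, 17 of 25 called higher with a median of 2.52, against 18.9% of all genes called higher. Ccr2, the receptor that draws monocytes from blood, was at 0.536 to 4.57 CPM (median 1.96) in controls and 15.3, 10.2, 23.9 and 32.9 CPM in depleted livers (3.28 ± 0.49 (SE, adjusted p = 0.000338)). Itgam and Lgals3, the integrin CD11b and galectin-3, rose by 3.50 and 3.42. Of the genes tied to scar-associated macrophages, Trem2 (0.26, adjusted p = 0.849), Gpnmb and Spp1 were not called. Complement C1q, made by macrophages, rose with them, C1qa by 2.64 ± 0.50 (SE, adjusted p = 0.00166).

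Of 22 sinusoidal endothelial genes, 2 were called higher and 2 lower, and the list's median was -0.08. The counts were 3 higher and 4 lower without control replicate 6 (median -0.26) and 4 higher and 1 lower without depleted replicate 4 (median 0.18). Stab2, a scavenger receptor of these cells, was at 24.9 to 90.8 CPM (median 74.4) in controls and 105, 111, 80.3 and 42.6 CPM in depleted livers and was not called. Gata4, the transcription factor that keeps their discontinuous form, was lower, at 10.4 to 20.2 CPM (median 16.4) in controls and 9.3, 10.1, 6.18 and 7.6 CPM in depleted livers (-1.0 ± 0.17 (SE, adjusted p = 0.000668)). Which cells of the whole liver carried this fall in Gata4 was not tested. Of 21 vascular and activation genes, 10 were called higher, against 18.9% of all genes. Vcam1, an adhesion molecule for leucocytes, was at 2.52 to 17.1 CPM (median 13.8) in controls and 200, 263, 305 and 196 CPM in depleted livers, a change of 4.25 ± 0.42 (SE, adjusted p = 2.25e-05), and Icam1 rose by 2.17 ± 0.23 (SE, adjusted p = 2.8e-05). Without depleted replicate 3, 6 of the 21 were called higher. Macrophages also express Vcam1 and Icam1, and their markers rose in the same livers (15 of 23 Kupffer and 17 of 25 monocyte genes); their part in this result was not tested. Cholangiocyte keratin Krt19 and Epcam were not called (adjusted p = 0.713 and 0.686).

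All interferon-gamma genes tested rose. The 28 GTPases and regulators were called higher, against 18.9% of all genes, with a median of 3.56. Their summed level was 725 to 1257 CPM in controls and 11794, 7823, 7557 and 7023 CPM in depleted livers. Gbp2, a guanylate-binding protein (chromosome 3, 142620602 to 142638008), was at 2.01 to 22.4 CPM (median 8.16) in controls and 674, 261, 363 and 337 CPM in depleted livers (5.23 ± 0.51 (SE, adjusted p = 1.97e-05)). Irf1, the transcription factor that carries the signal onward (chromosome 11, 53770014 to 53778374), was tight in both groups, at 41 to 49.2 CPM (median 42.1) in controls and 174, 131, 202 and 207 CPM in depleted livers (2.02 ± 0.13 (SE, adjusted p = 1.15e-06)). Cxcl9, a chemokine for activated T cells, rose by 4.86 ± 0.53 (SE, adjusted p = 3.86e-05). Tgtp1 and Tgtp2, near-identical T cell-specific GTPases whose reads could be shared between copies, rose by 5.58 and 5.53.

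Promoters of Irf1 and Gbp2 are shown because the members of this group moved together. That of Isg15, of the antiviral genes described next, is shown beside them. Dimers of STAT factors bind a palindrome, TTCNNNGAA, and the ISGF3 complex and IRF proteins bind GAAA repeated after a gap of 2 bases. Both were sought on both strands, and the motifs can overlap. Over 32851 RefSeq promoter windows of 300 bases (GRCm38.p6, 250 before to 50 after the start), 8.3% held the first and 3.44% the second. Of 30 interferon-gamma genes 19 matched, with 22 windows: 8 held the first (36.4%) and 12 the second (54.5%). Of 35 antiviral genes 26 matched, with 29 windows, and 6 (20.7%) and 15 (51.7%) held them. For 20 of 23 class I and immunoproteasome genes, with 22 windows, the shares were 9.09 and 22.7%. For 24 of 31 acute phase genes, with 27 windows, the shares were 29.6 and 11.1%. A match describes letters and is no evidence of binding. Capitals mark the palindrome in Irf1 (chr11:53769764-53770063, plus strand) and the repeat in Gbp2 (chr3:142620413-142620712, plus strand) and in Isg15 (chr4:156200769-156201068, minus strand).
Irf1: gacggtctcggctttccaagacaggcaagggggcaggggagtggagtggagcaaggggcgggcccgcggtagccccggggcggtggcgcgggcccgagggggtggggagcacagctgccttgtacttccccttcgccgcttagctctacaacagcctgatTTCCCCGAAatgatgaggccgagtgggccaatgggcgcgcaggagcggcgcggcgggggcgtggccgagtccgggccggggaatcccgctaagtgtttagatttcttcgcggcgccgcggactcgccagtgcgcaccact
Gbp2: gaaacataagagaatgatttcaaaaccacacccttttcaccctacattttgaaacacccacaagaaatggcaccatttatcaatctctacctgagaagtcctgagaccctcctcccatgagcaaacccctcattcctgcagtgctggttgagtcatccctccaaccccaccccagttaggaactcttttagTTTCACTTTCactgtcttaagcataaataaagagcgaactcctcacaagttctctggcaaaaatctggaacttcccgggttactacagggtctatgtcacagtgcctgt
Isg15: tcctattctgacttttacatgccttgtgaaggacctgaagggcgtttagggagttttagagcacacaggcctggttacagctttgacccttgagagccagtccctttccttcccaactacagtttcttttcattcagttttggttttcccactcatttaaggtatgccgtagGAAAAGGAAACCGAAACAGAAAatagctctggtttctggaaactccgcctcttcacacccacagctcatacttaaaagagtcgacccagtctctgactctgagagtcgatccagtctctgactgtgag

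Antiviral genes usually linked to type I interferon rose in smaller steps, 29 of 35 with a median of 1.56, against 18.9% of all genes called higher. Isg15, a ubiquitin-like modifier, was at 7.41 to 15.1 CPM (median 8.85) in controls and 26, 14.2, 29 and 52.4 CPM in depleted livers, where depleted replicate 2 fell inside the control range (1.54 ± 0.28 (SE, adjusted p = 0.00114)). Irf7 rose by 1.86 ± 0.27 (SE, adjusted p = 0.000262) and Zbp1, a sensor of unusual nucleic acids, by 3.70 ± 0.27 (SE, adjusted p = 2.83e-06). In females only, 19 of the 35 were called.

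Antigen presentation rose through both classes. Of 23 genes of class I and the immunoproteasome, 20 were called higher, against 18.9% of all genes. B2m, the light chain of class I, already stood at 1566 to 2142 CPM in controls and reached 3271, 3221, 3685 and 3608 CPM. Tap1, the peptide pump, changed by 3.30 ± 0.20 (SE, adjusted p = 6.21e-07) and the immunoproteasome subunits Psmb9 and Psmb8 by 3.01 and 2.56. Class II was called higher in 16 of 16. Markers of antigen-presenting cells rose in the same livers (17 of 25 monocyte, 17 of 20 dendritic and 13 of 15 B and plasma cell genes), and their part in this result was not tested. H2-Aa ran 12.3 to 37.1 CPM (median 21.2) in controls and 499, 400, 1061 and 1173 CPM in depleted livers (5.13 ± 0.44 (SE, adjusted p = 9.19e-06)), and Cd74, its chaperone, ran 25.4 to 121 CPM (median 66.2) in controls and 1504, 1096, 3126 and 3037 CPM in depleted livers.

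Of 37 chemokines and chemokine receptors, 25 rose, against 18.9% of all genes. Leucocytes carry the receptors. Neutrophil chemokine Cxcl1 was at 1.6 to 8.85 CPM (median 6.13) in controls and 54, 20.4, 42.3 and 22.7 CPM in depleted livers (2.76 ± 0.50 (SE, adjusted p = 0.0012)). Ccl24, an eosinophil chemokine made by macrophages, changed by 4.77 ± 0.40 (SE, adjusted p = 7.64e-06). Ccl2, the monocyte chemokine, was uneven, at 0.814, 0.314, 3.32 and 6.17 CPM against 0.429 to 0.914 CPM, and was not called (adjusted p = 0.0515). Of 38 genes of cell death and the inflammasome, 25 rose and none fell, among them Casp1 (2.71), Ripk3 (3.06), a kinase of necroptosis, and Pycard (3.68), an inflammasome adaptor. These genes are also expressed by leucocytes, whose markers rose in the same livers, and the part of the leucocytes in this result was not tested.

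Secreted acute phase proteins rose selectively. Of 31 genes, 23 were called higher and 1 lower, against 18.9 and 15% of all genes, with a median of 1.94. Lcn2, lipocalin-2, was at 3 to 16.9 CPM (median 5.79) in controls and 642, 682, 1591 and 1079 CPM in depleted livers (7.18 ± 0.53 (SE, adjusted p = 3.17e-06)). Hp, haptoglobin, rose by 2.33 ± 0.14 (SE, adjusted p = 6.21e-07), from levels of 1472 to 3039 CPM (median 2186) in controls and 9084, 8080, 12239 and 8667 CPM in depleted livers. Saa1 and Saa2, serum amyloid genes that are near copies of each other, changed by 5.37 and 5.74, and the lowest depleted value of Saa1 (262 CPM) was under the highest control (310). Orm2, orosomucoid, rose by 3.92 ± 0.59 (SE, adjusted p = 0.00034).

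Several acute phase genes were not called. The fibrinogen genes Fga, Fgb and Fgg (0.33, 0.21 and 0.22) and Crp (0.2) were among them. Hamp, hepcidin, which interleukin-6 and BMP signals both raise, was lower in each depleted liver than in any control, at 756 to 1076 CPM (median 856) in controls and 120, 378, 630 and 459 CPM in depleted livers. That difference was not called (adjusted p = 0.073), although it was without depleted replicate 3 (-1.77, adjusted p = 0.037). Its copy Hamp2 was called lower at -3.72. The iron exporter Slc40a1 rose by 1.00 ± 0.26 (SE, adjusted p = 0.00955).

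Along the interleukin-6 pathway, 12 of 23 genes were higher and 3 lower, or 8 and 1 without depleted replicate 3. Stat3 was at 82.9 to 111 CPM (median 96.7) in controls and 187, 161, 205 and 140 CPM in depleted livers (0.81 ± 0.16 (SE, adjusted p = 0.00199)), and Socs3, its feedback inhibitor, at 3.14 to 9.64 CPM (median 5.2) in controls and 26, 12.7, 36 and 31.6 CPM in depleted livers (2.35 ± 0.43 (SE, adjusted p = 0.00119)). Osmr, the receptor for oncostatin M, rose by 1.86, a call lost without depleted replicate 3 (adjusted p = 0.0535). Lifr, the receptor for leukaemia inhibitory factor, was lower in every depleted liver, at 368 to 757 CPM (median 659) in controls and 254, 155, 90.9 and 169 CPM in depleted livers (-1.92 ± 0.33 (SE, adjusted p = 0.000724)). Of 37 complement genes, 17 rose and 5 fell, and of 38 coagulation genes, 10 rose and 3 fell, where 18.9% of all genes rose and 15% fell. The number of coagulation genes that fell was 6 without control replicate 4, and 1 without control replicate 1 or 3 or depleted replicate 1 or 3. Prothrombin F2 was at 1539 to 2015 CPM (median 1835) in controls and 1642, 1800, 1598 and 1612 CPM in depleted livers, a change of -0.15 ± 0.13 (SE, adjusted p = 0.407). Complement C3 rose by 0.85 ± 0.24 (SE, adjusted p = 0.0143), not called without depleted replicate 3 (adjusted p = 0.077).

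Pericentral hepatocyte genes fell. Of 27 pericentral genes, 19 (70.4%) were called lower and none higher, with a median of -1.33, and their summed CPM was 20657 to 25924 in controls and 5219, 5831, 4235 and 6966 in depleted livers. Over all genes 15% were lower, with 38.7% at 100 to 1000 CPM and 44.5% at 1000 CPM or more. Of 24 periportal genes, 5 rose and 5 fell, shares near the 18.9 and 15% of all genes, with a median of -0.06 whose sign changed with the settings, and without depleted replicate 3 the counts were 3 and 2. No test of 1 list against the other was made. Hnf4a, the master regulator of hepatocyte identity, was not called, at 534 to 886 CPM (median 658) in controls and 650, 693, 746 and 429 CPM in depleted livers (-0.11 ± 0.20 (SE, adjusted p = 0.723)).

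Cyp2e1, the ethanol-oxidising cytochrome of the pericentral zone (chromosome 7, 140763739 to 140774987), was at 9304 to 13214 CPM (median 10058) in controls and 831, 978, 1317 and 1340 CPM in depleted livers (-3.24 ± 0.26 (SE, adjusted p = 4.65e-06)). Glul, glutamine synthetase, marks only the last hepatocytes before the central vein and was at 886 to 1500 CPM (median 994) in controls and 263, 235, 450 and 742 CPM in depleted livers (-1.35 ± 0.34 (SE, adjusted p = 0.00909)). Cyp1a2 and Cyp7a1, the rate-limiting enzyme of bile acid synthesis, changed by -3.03 ± 0.54 (SE, adjusted p = 0.0011) and -3.70 ± 0.50 (SE, adjusted p = 0.000171). Depleted replicate 4 kept the highest level of each of the 4 among depleted livers, and still lay below every control. Periportal Cyp2f2 and Hal, histidase, overlapped fully and were not called (adjusted p = 0.846 and 0.783), whereas Pck1, which commits carbon to glucose, was raised by 0.91 ± 0.23 (SE, adjusted p = 0.00907), not called without depleted replicate 3 (adjusted p = 0.067).

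Of 29 genes of Wnt and R-spondin signalling (ligands, receptors and targets), 14 were lower, 3 higher and 12 not called, against 15 and 18.9% of all genes lower and higher. Without depleted replicate 3, 10 were lower and none higher. Rspo3, the R-spondin made by central vein endothelium and stellate cells, was at 2.58 to 8.77 CPM (median 6.53) in controls and 1.97, 1.05, 1.5 and 1.25 CPM in depleted livers (-2.13 ± 0.34 (SE, adjusted p = 0.000398)). Its receptor Lgr5 was at 5.02 to 8.81 CPM (median 8.1) in controls and 1.09, 0.65, 0.873 and 1.65 CPM in depleted livers, and Axin2, a feedback target of beta-catenin, at 9.49 to 15.6 CPM (median 10.8) in controls and 1.97, 1.7, 1.59 and 2.52 CPM in depleted livers (-2.57 ± 0.21 (SE, adjusted p = 5.52e-06)). No depleted liver overlapped a control in Rspo3, Lgr5 or Axin2. The feedback genes Notum (-2.26) and Rnf43 (-2.05) and the ligand Wnt4 (-2.82) were also called, while Wnt2 (-1.04) and Wnt9b (-0.76), the endothelial ligands, and Ctnnb1 (-0.26) were not.

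Of 30 transcription factors of the hepatocyte, 10 were lower and 1 higher, where 15% of all genes and 38.7% of those at 100 to 1000 CPM were lower. Cebpa, which drives the quiescent metabolic state, was at 273 to 466 CPM (median 364) in controls and 158, 167, 138 and 244 CPM in depleted livers (-1.0 ± 0.21 (SE, adjusted p = 0.00247)), and its relative Cebpb, an effector of the acute phase, was at 11.8 to 30.3 CPM (median 21.2) in controls and 39.8, 36.1, 64.2 and 49.2 CPM in depleted livers (1.31 ± 0.24 (SE, adjusted p = 0.00102)). Both ranges were apart from those of the controls. Tbx3 (-2.14), Nr2f2 (-1.19) and Foxa1 (-1.12) fell. Fetal marker Afp was not called (adjusted p = 0.833).

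Many drug metabolism genes fell. Of 59 cytochromes P450 of families 1 to 4, 24 were lower and 6 higher, and of 50 phase II conjugation genes, 20 were lower and 1 higher. Over all genes 15% were lower, and at control levels of 100 to 1000 CPM 38.7% were, so these shares are near those of abundant genes in general. The phase II gene called higher was Sult1e1, oestrogen sulfotransferase, at 7.15. Its levels overlapped, as no phase II gene lay above every control in all 4 depleted livers. Cyp3a11, the main drug-oxidising enzyme, was at 2846 to 6031 CPM (median 4063) in controls and 1024, 1307, 1038 and 3849 CPM in depleted livers, with replicate 4 inside the control range, and its call (-1.37 ± 0.39 (SE, adjusted p = 0.017)) was lost without depleted replicate 3 (adjusted p = 0.0951). Cyp2c70, which makes muricholic acids, rose by 1.06 ± 0.22 (SE, adjusted p = 0.00232). Sult2a8 and Gstt2, a bile acid sulfotransferase and a glutathione transferase, fell by 2.71 and 1.99. Of the 50 phase II genes, 13 were called lower without depleted replicate 3 and 7 in females only. Without depleted replicate 4, 26 were lower and 4 higher, and with scaling to library size alone 5 were higher.

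Of 32 genes of bile acid synthesis and transport, 13 were lower, Cyp7a1 among them, and 2 higher, where 15% of all genes and 38.7% of those at 100 to 1000 CPM were lower. Slco1a1, a basolateral uptake carrier with a strong sex difference in mice, was at 87.7 to 811 CPM (median 664) in controls and 1.05, 4.39, 19 and 77.9 CPM in depleted livers, a change of -4.06 ± 1.14 (SE, adjusted p = 0.0157) that was not called without depleted replicate 3 (adjusted p = 0.069). Akr1c6 fell by 2.63. Abcc4, which exports bile acids back to blood, was at 0.63 to 2.83 CPM (median 2.19) in controls and 11.1, 10.3, 6.34 and 6.62 CPM in depleted livers (1.95 ± 0.34 (SE, adjusted p = 0.000774)), above every control in each depleted liver. The main uptake carrier Slc10a1 was not called (adjusted p = 0.204).

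Fatty acid oxidation genes fell. Of 39 genes, 31 (79.5%) were lower and none higher, 30 of them with ranges that did not overlap, against 15% called lower and 11.9% below every control over all genes. Of all genes at 100 to 1000 CPM, 38.7% were lower. The fall was moderate, with a median of -0.82. Cpt1a, which admits fatty acids to mitochondria, was at 408 to 478 CPM (median 424) in controls and 195, 215, 295 and 212 CPM in depleted livers (-0.91 ± 0.20 (SE, adjusted p = 0.00352)). Peroxisomal thiolase Acaa1b was at 302 to 695 CPM (median 516) in controls and 17, 32.7, 14.5 and 140 CPM in depleted livers (-3.62 ± 0.68 (SE, adjusted p = 0.00147)), and Bdh1, the ketone body dehydrogenase, at 279 to 408 CPM (median 321) in controls and 55, 29.9, 64.9 and 131 CPM in depleted livers (-2.32 ± 0.36 (SE, adjusted p = 0.000413)). Over all settings tried the count lower ran 24 to 32 and none was called higher.

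Of 72 nuclear genes of oxidative phosphorylation, 36 were called lower and none higher, where 15% of all genes and 38.7% of those at 100 to 1000 CPM were lower. The fold change was below 0 in 71 of them, with a median of -0.44. Sdha, the catalytic subunit of complex II, was at 589 to 675 CPM (median 641) in controls and 418, 455, 342 and 347 CPM in depleted livers (-0.73 ± 0.13 (SE, adjusted p = 0.00109)), and Cyc1 of complex III fell by 0.86 ± 0.14 (SE, adjusted p = 0.000532) on the log2 scale. With changes this small the count moved with the libraries, to 57 without depleted replicate 4, 19 without replicate 1, 12 without replicate 3, 21 without control replicate 3, 19 with scaling to library size alone and 7 in females only. Symbol families of the mitochondrial ribosome had 13 of 48 Mrpl and 6 of 29 Mrps genes lower and none higher, against 15% of all genes lower. Cytosolic ribosomal proteins gave 2 higher and 1 lower of 76, and Rplp0 was at 214 to 320 CPM (median 281) in controls and 240, 269, 307 and 308 CPM in depleted livers.

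**Figure D4:**
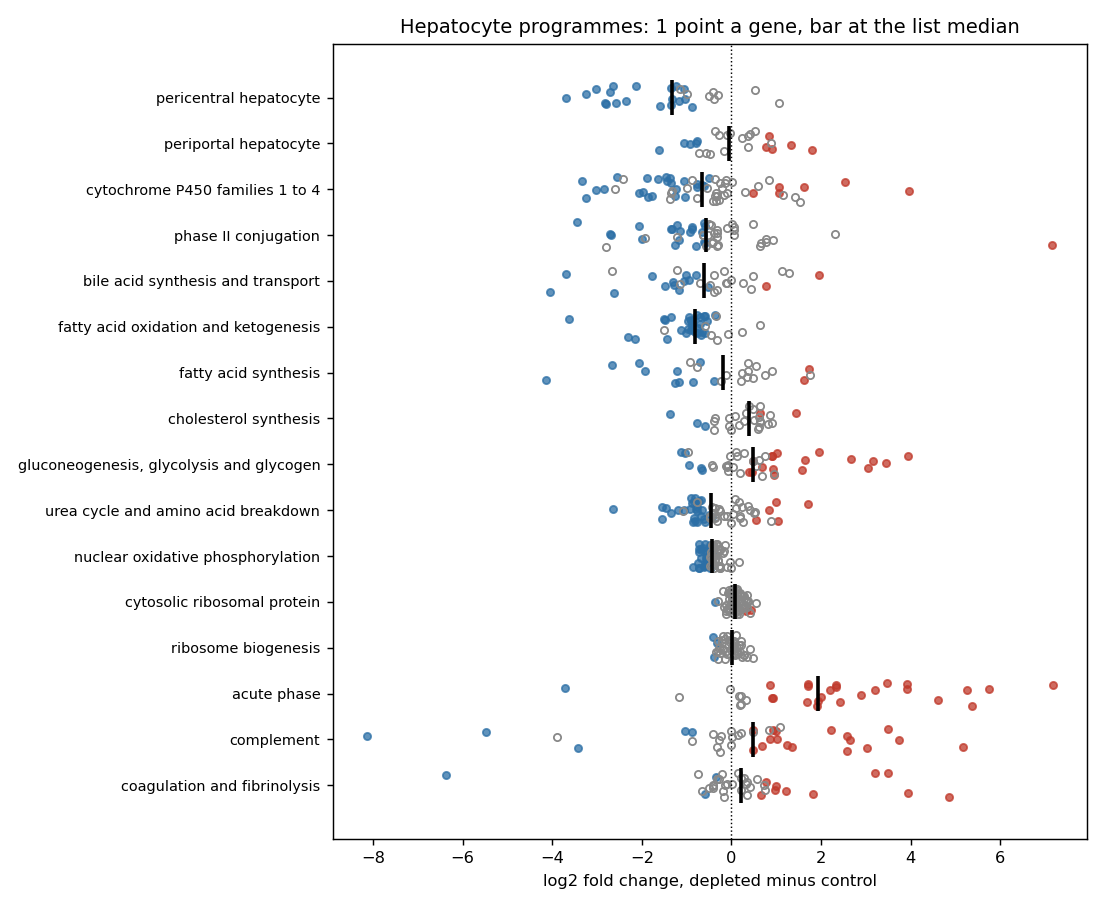
Log2 fold changes of depleted against control livers for the members of 16 lists, 1 point a gene, red called higher, blue called lower, open not called, with a bar at the list median. Oxidative phosphorylation lies in a narrow band around its median of -0.44, fatty acid oxidation around -0.82, and the 2 ribosomal lists around 0.

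Lipid genes otherwise divided. Among 26 genes of fatty acid synthesis, 10 were lower (38.5%) and 2 higher, and 1 was higher without control replicate 2 or 6 or depleted replicate 2 or 3. Over all genes 15% were lower and 18.9% higher, and the share lower is near the 38.7% of genes at 100 to 1000 CPM. Elovl2 and Fads2, which lengthen and desaturate polyunsaturated fatty acids, fell by 2.07 and 1.92, and Fasn was not called, with levels of 177 to 729 CPM (median 235) in controls and 679, 708, 169 and 343 CPM in depleted livers. Scd1, the abundant hepatocyte desaturase, was uneven at 610, 923, 99.5 and 2831 CPM and its call (adjusted p = 0.0294) was lost without control replicate 3 or depleted replicate 1, 2 or 3 (adjusted p 0.0585 to 0.12), whereas Scd2 rose by 1.74. Fabp1, the cytosolic fatty acid binding protein of hepatocytes, was at 3310 to 8607 CPM (median 3886) in controls and 309, 117, 176 and 1690 CPM in depleted livers (-3.15 ± 0.81 (SE, adjusted p = 0.00984)). Fabp4 and Lpl, lipid genes of macrophages and endothelium, rose by 2.34 and 1.63. Cholesterol synthesis gave 2 higher and 3 lower of 27, shares under those of all genes, and none higher when any library but control replicate 5 or depleted replicate 4 was left out. Apoe, at 13774 to 19961 CPM (median 17165) in controls and 8807, 11142, 8804 and 10984 CPM in depleted livers, fell by 0.77 (adjusted p = 0.00536), and Apob was not called (adjusted p = 0.275).

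Of 42 genes of glucose metabolism, 17 were higher and 5 lower, against 18.9 and 15% of all genes, and 2 were lower without depleted replicate 3. Hk3 and Pkm, the hexokinase and pyruvate kinase found in leucocytes, were at 0.96 to 6.95 CPM (median 4.23) in controls and 58.2, 38.7, 86.2 and 84.8 CPM in depleted livers and 5.61 to 20.2 CPM (median 16.4) in controls and 96.5, 64.4, 158 and 182 CPM in depleted livers. Pfkp rose by 3.46 ± 0.33 (SE, adjusted p = 1.28e-05). Pklr, the hepatocyte pyruvate kinase, was not called (0.55). Leucocyte markers rose in the same livers, and their part in this result was not tested. Of 60 genes of the urea cycle and amino acid breakdown, 27 were lower and 5 higher, and 1 was higher without depleted replicate 3. The share lower is near the 38.7 to 44.5% of all genes at 100 CPM or more. Oat, ornithine aminotransferase of the pericentral zone, was at 518 to 2334 CPM (median 816) in controls and 91.3, 147, 153 and 273 CPM in depleted livers (-2.65 ± 0.44 (SE, adjusted p = 0.000642)), while Cps1, which starts the urea cycle, was not called (adjusted p = 0.184).

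Of 29 genes of vitamin A storage and retinoids, 13 were lower and 3 higher, where 15% of all genes and 38.7% of those at 100 to 1000 CPM were lower. Apart from Lrat, Rbp4, the plasma retinol carrier made by hepatocytes, fell by 0.90 (adjusted p = 0.0045). Cyp26a1, which degrades retinoic acid and is induced by it, was at 3.7 to 88.8 CPM (median 26.7) in controls and 203, 282, 259 and 507 CPM in depleted livers (2.94 ± 0.70 (SE, adjusted p = 0.00648)), with no overlap. The retinyl ester hydrolase Ces1d fell by 2.11.

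Ghr, the growth hormone receptor, was at 448 to 794 CPM (median 698) in controls and 258, 207, 263 and 296 CPM in depleted livers (-1.34 ± 0.17 (SE, adjusted p = 9.95e-05)), while Igf1, its main target, was not called (adjusted p = 0.0809). The major urinary protein genes, near-identical copies whose reads cannot be assigned with certainty, gave 12 of 20 lower and none higher, against 15% of all genes lower, with a median of -3.82. Hsd3b5, a male-biased steroid dehydrogenase, was at 2.12 to 563 CPM (median 153) in controls and 0.0643, 0.0448, 0.105 and 1.16 CPM in depleted livers (-6.04 ± 1.48 (SE, adjusted p = 0.00761)), and Car3, carbonic anhydrase 3, at 2677 to 7206 CPM (median 3606) in controls and 54.8, 47.9, 113 and 633 CPM in depleted livers (-4.27 ± 0.92 (SE, adjusted p = 0.00349)). Sex was a term of the model, and only 1 depleted liver was male.

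Many genes of mitosis rose. Of 40 genes of G2 and mitosis, 21 were higher and none lower, with a median of 1.94. Top2a was at 0.33 to 8.16 CPM (median 1.41) in controls and 22.6, 13.8, 19.6 and 29.5 CPM in depleted livers (2.94 ± 0.75 (SE, adjusted p = 0.00922)), and Mki67 at 0.51 to 16.1 CPM (median 2.41) in controls and 56, 18.2, 22.9 and 51.1 CPM in depleted livers (2.79 ± 0.78 (SE, adjusted p = 0.0149)), with its call lost without depleted replicate 3 (adjusted p = 0.0507). Control replicate 4 was high in these genes, and without it 36 of 40 were called. Without depleted replicate 3 or 4 the count was 8 or 13, and in females only it was 4. Of 43 genes of DNA replication, 11 rose and 2 fell, against 18.9 and 15% of all genes. Of these 43, 5 rose without depleted replicate 3 or 4, 6 without control replicate 3 or 5, and 18 in a fit without the hepatectomised livers.

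Of 27 cyclins, kinases and inhibitors of G1, 7 were higher and 3 lower, against 18.9 and 15% of all genes, and 19 fold changes were above 0. Without depleted replicate 3 the counts were 5 and 1. Ccnd1, cyclin D1, was at 6.51 to 151 CPM (median 66.9) in controls and 18.8, 17.1, 14.1 and 58.1 CPM in depleted livers, all inside the control range. It was called lower at -1.71 ± 0.55 (SE, adjusted p = 0.0289) and not called without control replicate 4 or 5 or depleted replicate 1, 2 or 3 (adjusted p 0.0545 to 0.0804). Cdkn1a, which encodes the inhibitor p21, was at 0.33 to 2.14 CPM (median 0.834) in controls and 10.9, 25.5, 55.6 and 17.2 CPM in depleted livers (4.74 ± 0.53 (SE, adjusted p = 4.75e-05)). Of p53 targets, 8 of 30 were higher and 1 lower, against 18.9 and 15% of all genes, and Mdm2 was not called (adjusted p = 0.148). In whole liver these counts do not say which cells were dividing. Marker genes of lymphocytes and myeloid cells rose in the same 4 livers and their part was not tested.

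Stress genes rose at the immediate early level, 22 of 29 higher and none lower, and 13 without depleted replicate 3. Atf3 was at 0.12 to 1.73 CPM (median 1.01) in controls and 5.57, 3.99, 8.66 and 12.7 CPM in depleted livers (2.95 ± 0.60 (SE, adjusted p = 0.00244)), Dusp1 rose by 2.54 and Myc by 2.01. Of 39 genes of the unfolded protein response, 5 were higher and 3 lower, shares under the 18.9 and 15% of all genes, with Hspa5 and Ddit3 not called (adjusted p = 0.927 and 0.669). Without control replicate 4, whose Hspa5 was 1143 CPM, 12 were higher, and without depleted replicate 3 there were 3 higher and 1 lower. Of oxidative stress genes, Hmox1 was raised by 1.88 ± 0.23 (SE, adjusted p = 6.32e-05) and Gclc, of glutathione synthesis, was lower at 250 to 473 CPM (median 336) in controls and 110, 84.2, 130 and 138 CPM in depleted livers (-1.51 ± 0.21 (SE, adjusted p = 0.000166)). Of 23 clock genes 3 were lower and none higher, against 15 and 18.9% of all genes, with 7 lower without control replicate 4 and 5 without depleted replicate 4. Nr1d1 was at 90.3 to 211 CPM (median 162) in controls and 41.3, 12.4, 14 and 30.8 CPM in depleted livers (-2.88 ± 0.51 (SE, adjusted p = 0.00104)), and the hour of sampling is not given in the sources used here.

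**Figure D5:**
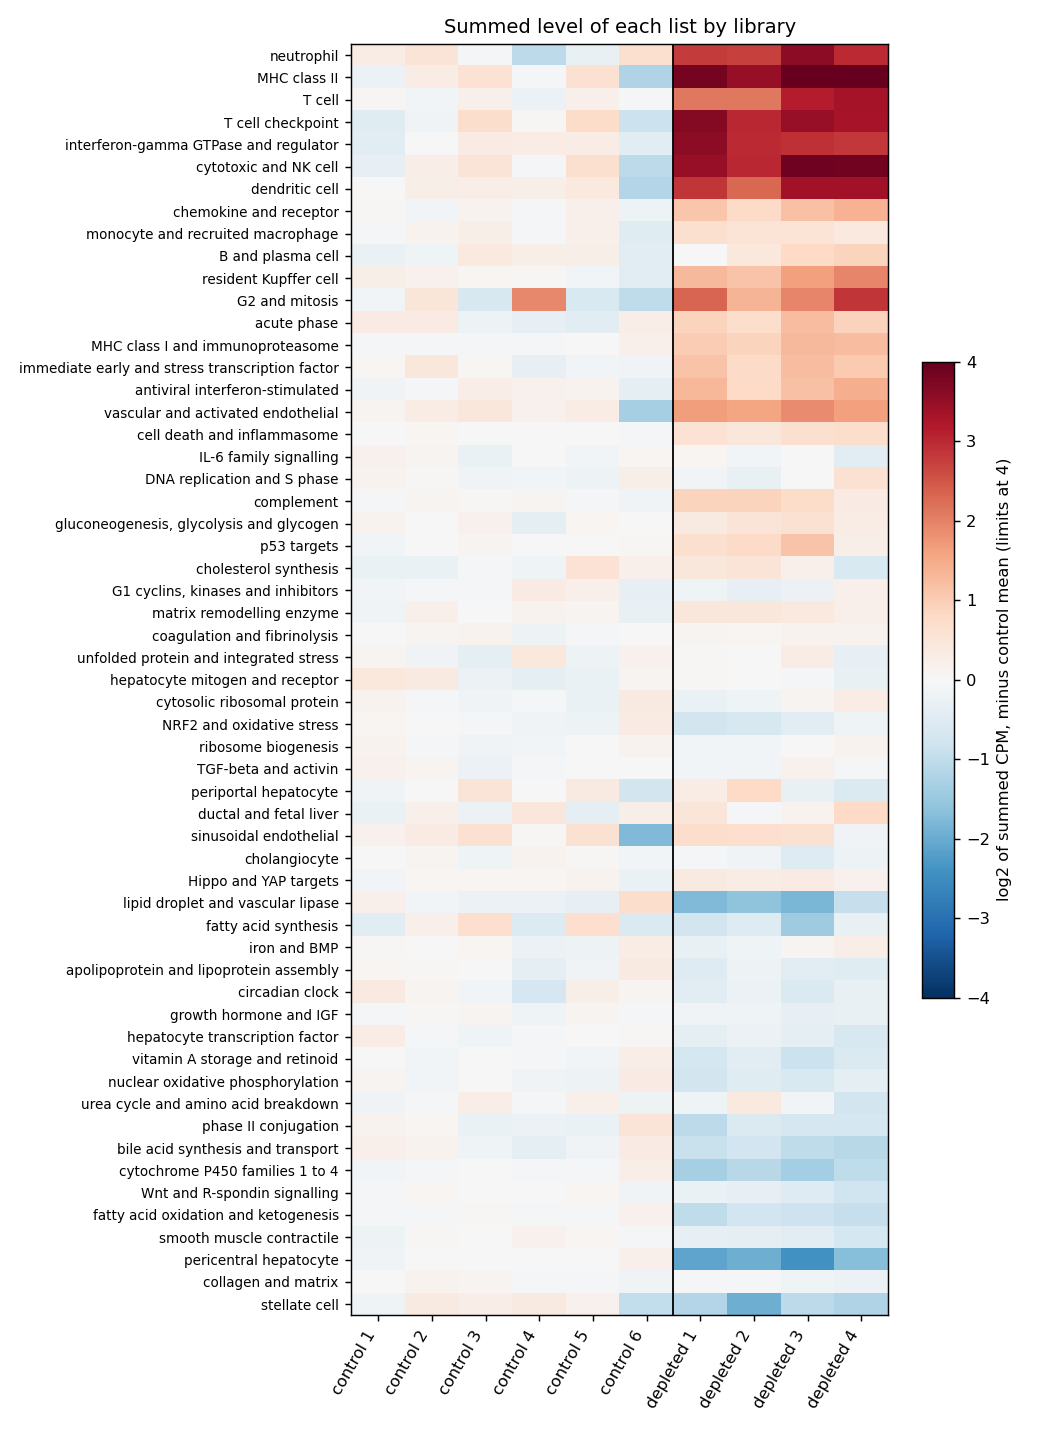
Log2 of the summed CPM of each of 57 lists in each library, minus the mean of the 6 controls, in the order of the list medians. Rows of neutrophil, T cell and interferon lists are red and rows of pericentral genes blue in each of the 4 depleted livers, the B and plasma cell row overlaps the controls, control replicate 6 is pale blue in endothelial and dendritic cell lists, and control replicate 4 is red in mitosis. A sum is led by a list's most abundant members.

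Among genes in no list, the largest rises included Serpina3g (5.58) and Serpina3f (5.31), serine protease inhibitors of a shared gene cluster, Smpd3 (5.49), a neutral sphingomyelinase, Slamf8 (5.31), Rgs1 (4.76), Pla2g7 (4.71) and Fcgr4 (4.52), an Fc receptor of myeloid cells. Serpina3g was at 1.23 to 8.45 CPM (median 5.5) in controls and 326, 133, 347 and 268 CPM in depleted livers. Symbol families differed. Of 84 Cd genes 57 were higher and 4 lower, and of 48 Il genes 32 and 3, against 18.9 and 15% of all genes. The 345 Zfp zinc finger genes gave 20 higher and 25 lower, shares of 5.8 and 7.25% that lie under that background.

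An interaction of depletion with sex was fitted too. Of 13831 genes, 3 (0.0217%) passed the threshold, and 2 did in a fit without the hepatectomised livers. With 1 male depleted liver, that liver is assumed to vary like the others, and an effect of sex and of that 1 liver cannot be told apart. The genes were Cwc22, Fam171b and C1rb, named here after their values were seen. Cwc22, a splicing factor gene, was between 10.3 and 14.7 CPM in 9 libraries and 72.7 CPM in depleted replicate 3. Fam171b was 24 CPM in that liver, against 1.26 to 5.42 CPM in controls and at most 0.468 CPM in the other depleted livers. C1rb was 4.2 to 5.38 CPM in the female controls and at most 0.157 CPM elsewhere among the 10 libraries.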

How the data were processed

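RNA from 13 whole mouse livers was sequenced after TRIzol extraction with a stranded TruSeq mRNA kit, per the labels' protocols. The authors deposited raw counts per gene for 22048 genes in 13 libraries. STAR 2.7.1a, SAMtools 1.15.1, featureCounts 1.6.4 and the mm10 build are named per the submitters' processing notes; the strand setting, the annotation and the handling of multiply mapped reads are not given in the sources used here. Reads of overlapping, antisense or near-identical genes (Saa1 and Saa2, Mup, Cyp2c, Tgtp1 and Tgtp2, H2 class I, Gbp) are therefore uncertain. Gene coordinates are those of GENCODE M21 (GRCm38), which held 21818 of the gene IDs.

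From the counts, 13831 genes passed filterByExpr and were fitted with edgeR 4.0.16 (limma 3.58.1, R 4.3.3) with group and sex as terms over all 13 libraries, TMM scaling, the quasi-likelihood test and Benjamini-Hochberg adjustment at 0.05. CPM are TMM-scaled. The script was tested on simulated data. Totals of 35360991 to 51008737 counts put 3 counts at 0.0588 to 0.0848 CPM, a floor that covers counting error only, since no molecular identifiers were used. No 2 libraries of a group agreed within sampling noise. Alternatives included other scalings, filters and sample sets, DESeq2 1.42.0, limma-voom, a replicate block and leaving out each library.

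The 57 gene lists and the samples compared were chosen with earlier results of these data known. Genes were named if they were core genes of a list, among the 3 largest rises or falls of a list (adjusted p under 0.05, mean log2 CPM of at least 1, ranges apart), or among the 12 largest rises or falls in no list. Genes named outside that rule, among them Vsig4, Folr2, Gpnmb, Spp1, Fga, Fgb, Fgg, Crp, Hamp2, Notum, Rnf43, Wnt4, Wnt2, Wnt9b, Ctnnb1, Pklr and Sult1e1, were chosen after their values were seen. Comparisons with the hepatectomised livers are not analysed here, and a few genes that the rule names are not reported here.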

Additional observations from a re-analysis of the deposited data

Results flagged for a closer look

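A library was noted where its gap to the nearest other library of its group was large for the group's range, by Dixon's criterion at 95%. This held for 35 of 342 groups of values examined, where chance gives about 1 in 20, or 17.1.

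Depleted replicate 4 accounted for many of them. It was above the other depleted livers in Lrat (2.54 CPM), Des (2 CPM), Pdgfrb (3.61 CPM), Acta2 (5.68 CPM), Myh11 (0.557 CPM), Col1a1 (24.3 CPM), Timp1 (2.32 CPM), Mmp2 (1.58 CPM), Clec4f (69.5 CPM), Cyp3a11 (3849 CPM) and Ccnd1 (58.1 CPM). It was below them in Sqle (84 CPM), an enzyme of cholesterol synthesis, and in the summed CPM of the sinusoidal endothelial list (713) and the matrix remodelling list (606). Depleted replicate 1 had the highest interferon-gamma sum (11794 CPM) and depleted replicate 2 the lowest Tap1 (124 CPM).

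Control replicate 6 was low in the sums of the dendritic cell list (21.8 CPM) and the vascular endothelial list (89.7 CPM), in Adgre1 (1.74 CPM) and in Irf7 (24.5 CPM). It was high in the sums of P450 genes (38490 CPM), retinoid genes (17319 CPM) and class I genes (5983 CPM) and in Cdkn1b (34.5 CPM). Control replicate 4 was high in the sum of the G2 and mitosis list (171 CPM), Mki67 (16.1 CPM), Ccnb1 (3.01 CPM), Afp (6.9 CPM) and Hspa5 (1143 CPM). Control replicate 2 was high in Acta2 (5.16 CPM), Col1a1 (32.3 CPM), Trem2 (1.93 CPM), Saa1 (310 CPM) and Myc (8.87 CPM). Control replicate 5 was high in Ifng (0.0702 CPM).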

How the results depend on the processing

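The count of 4692 genes called (2614 higher, 2078 lower) was 2695 in females only (1834 higher, 861 lower) and 2960 without depleted replicate 3 (1786 higher, 1174 lower). Leaving out each library in turn gave 2960 to 4817 called, 1786 to 2539 higher and 1174 to 2288 lower. Scaling to library size alone put 66.2% of the calls on the higher side, against 55.7% with TMM. DESeq2 called 5207, limma-voom 4993, size-factor scaling 4683, upper quartile scaling 4575, no low-count filter 4745, a CPM filter 4107, the 10 libraries alone 4675 and no sex term 4727. A replicate block called 3887 (2213 higher, 1674 lower) and kept 78.4% of the calls. Same-numbered control and depleted livers differ in sex for numbers 1 to 3. Their deviations correlated at -0.26, -0.19, -0.34 and 0.07, or at 0.14, -0.08, 0.42 and 0.07 after sex was taken out, and since not every pair was over 0.1 the numbers were not taken to pair the samples. No gene called both with TMM over 13 libraries and in another setting changed sign. Of 298 genes in the naming rule, 255 were called and 193 were called in each of the 21 alternatives. With 4 depleted livers, 1 of them male, the effect of sex on the depletion response rests on a single animal.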
